A study of Mus musculus with 6 samples.

Results

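The EGF receptor family and its ligands were looked up in lists of genes that carried trimethylation of lysine 27 on histone H3 (H3K27me3), a mark of silent chromatin, in mouse granulosa cells (GCs), the somatic cells around the oocyte. The set was fixed by name and held 10 genes of the 26180 with a curated RefSeq transcript. It comprised the receptors Egfr, Erbb2, Erbb3 and Erbb4 and the ligands Areg, Ereg, Btc, Egf, Tgfa and Nrg1. The set was chosen with earlier results of these data known. From the same data, the paper names Egfr and Erbb4 among genes with less H3K27me3 after androgen. The study asked how androgen alters H3K27me3, and ChIP-seq was performed on 3 control samples given no agent and 3 samples given 25 nM dihydrotestosterone (DHT), an androgen that cannot be aromatized to estrogen, for 24 h. All 6 were primary GC cultures from wild type C57BL/6J mice of 8 to 9 weeks. Per the labels, cells of 30 mice were plated into 6 dishes, so each dish held a pool of animals.

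EGF-like growth factors are made as membrane proteins, are released by sheddases and bind receptors of the ERBB family, which pair up and phosphorylate each other. ERBB2 has no known ligand of its own, and ERBB3 has little kinase activity and signals through a partner. In the preovulatory follicle the surge of luteinizing hormone induces amphiregulin, epiregulin and betacellulin in GCs, and these carry the ovulatory signal through EGFR to the cumulus cells and the oocyte.

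The deposited data give 1 peak list and 1 list of each kind of gene for each group, so no value per sample, read depth or replicate error stood behind any number below, and no difference between control and DHT was tested. A gene was either named in a list or not, at the q-value limit of 0.05 that the authors applied to peaks. In a culture of many cells, a mark on fewer cells and less mark per cell cannot be told apart. The peaks were in the mm9 assembly, and no mm9 annotation was used here, so peaks were not placed inside single genes. Gene order, gene length and promoter sequence were taken from RefSeq on GRCm38.p6. The files hold no expression values, so the labelled cell type could not be checked by expression. Of 8 GC markers, both gene body lists held Fshr, the control list alone held Cyp19a1 and the DHT list alone held Nr5a2, and Amh, Foxl2, Inha, Inhba and Hsd17b1 were in neither. Of 10 markers of other ovarian cells, Pecam1 (endothelium) and Ptprc (leukocytes) were in both lists and the other 8 in neither.

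Of the 10 genes, 6 were in the control gene body list (60.0%) and 1 was in the DHT gene body list (10%). Egfr, Erbb4, Ereg, Btc, Egf and Nrg1 had an H3K27me3 peak in the gene body in control and not after DHT. Erbb2 was listed after DHT and not in control. Erbb3, Areg and Tgfa were in neither list, and no gene of the set was in both. Over all genes, 12% were listed in control and 4.36% after DHT. The share listed in control alone was 9.37% over all genes and 60.0% of the set. Over all genes 1.76% were listed after DHT alone and 2.60% in both.

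None of the 10 genes was in a promoter list, where a promoter is the region within 1 kb of a transcription start site. Either promoter list held 0.772% of all genes, so an absence of 10 genes says little about this set. None was among the genes that rose or fell in expression with a gene body peak, or among the regulated genes linked to an enhancer, and those 4 lists together held 0.439% of all genes. The 6 genes listed in control alone were thus not among the genes that the authors called regulated by DHT and joined to a peak. Whether their expression was measured or moved below the authors' limits was not analysed here.

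Among the receptors, 2 of 4 were in the control list (50%) and 1 of 4 was in the DHT list (25.0%). The mean shares over all genes of their length classes were 42.8% and 22.5%, so these counts were near those of genes as long. Egfr, the receptor for EGF, amphiregulin, epiregulin and betacellulin and the main ERBB receptor of GCs, was listed in control alone. It lies on chromosome 11 and spans 161.7 kb, of which 96.0% is intron, and it is longer than 94.1% of protein-coding genes. Erbb4, a receptor for neuregulins and betacellulin, was also listed in control alone. It lies on chromosome 1 and spans 1075.9 kb, of which 98.9% is intron, and it is longer than 99.8% of protein-coding genes. Erbb2, the partner without a ligand, was the member listed after DHT alone. It spans 25.2 kb on chromosome 11, with 80.2% of it intron. Erbb3, the neuregulin receptor with little kinase activity, was in neither list and spans 22.1 kb on chromosome 10. Egfr and Erbb2, on the same chromosome, were therefore listed in opposite groups.

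The promoters of Egfr and Erbb2 are shown because both genes had a gene body peak in opposite groups and neither had a promoter peak, and because H3K27me3 at promoters is known to collect at stretches rich in CG dinucleotides. Each is the 250 bases before the transcription start, 5′ to 3′ on the strand of the gene, in GRCm38.p6, with every CG dinucleotide in capitals. The Egfr promoter is at chr11:16751953-16752202 on the plus strand and that of Erbb2 at chr11:98412234-98412483 on the plus strand.
Egfr: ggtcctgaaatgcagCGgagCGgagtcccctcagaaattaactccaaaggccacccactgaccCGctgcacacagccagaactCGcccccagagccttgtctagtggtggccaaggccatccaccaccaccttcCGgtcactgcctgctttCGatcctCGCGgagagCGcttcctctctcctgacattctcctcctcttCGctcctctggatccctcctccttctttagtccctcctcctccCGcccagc
Erbb2: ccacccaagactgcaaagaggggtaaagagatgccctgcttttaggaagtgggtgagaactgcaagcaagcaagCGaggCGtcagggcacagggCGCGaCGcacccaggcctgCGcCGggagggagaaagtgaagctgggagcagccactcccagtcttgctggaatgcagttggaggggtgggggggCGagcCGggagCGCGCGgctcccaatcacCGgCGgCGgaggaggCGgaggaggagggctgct
The Egfr window held 11 CG dinucleotides and that of Erbb2 held 16, against a median of 6 over 32851 promoter windows of the same length. GC content was 60.8% in Egfr and 66.0% in Erbb2, and the median window was at 52.4%. The ratio of observed to expected CG was 0.55 in Egfr and 0.63 in Erbb2, above 62.8% and 68.2% of windows. Erbb4 had 12 CG dinucleotides and a ratio of 0.67, above 71.4% of windows. The receptors listed in opposite groups thus both lay above the median window in CG content.

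Among the ligands, 4 of 6 were in the control list (66.7%) and none was in the DHT list. The mean shares over all genes of their length classes were 19.8% and 6.36%, so an absence of 6 genes from the DHT list says little. Ereg (epiregulin) and Btc (betacellulin), ligands that the luteinizing hormone surge induces, were listed in control alone. Areg (amphiregulin), the other ligand of that group, was in neither list. Ereg spans 19.0 kb, Areg 8.8 kb and Btc 45.7 kb, all on chromosome 5. Egf, the founding ligand of the family, was listed in control alone and spans 77.7 kb on chromosome 3. Tgfa (transforming growth factor alpha), another ligand of EGFR, was in neither list and spans 80.5 kb on chromosome 6. Nrg1 (neuregulin 1), which binds ERBB3 and ERBB4, was listed in control alone and lies on chromosome 8. Its 12 curated transcripts span 195.0 kb, and its whole gene record, predicted transcripts included, spans 1084.2 kb. Introns made up 78.3% of Ereg, 86.2% of Areg and 93.7 to 95.7% of Btc, Egf, Tgfa and Nrg1.

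The promoter of Areg is shown because its gene was unlisted between listed neighbours and because the cAMP response element that it holds is known to mediate its induction by the luteinizing hormone surge. The window lies at chr5:91139349-91139598 on the plus strand of GRCm38.p6, and the capitals mark that element, TGACGTCA, which reads the same on both strands.
Areg: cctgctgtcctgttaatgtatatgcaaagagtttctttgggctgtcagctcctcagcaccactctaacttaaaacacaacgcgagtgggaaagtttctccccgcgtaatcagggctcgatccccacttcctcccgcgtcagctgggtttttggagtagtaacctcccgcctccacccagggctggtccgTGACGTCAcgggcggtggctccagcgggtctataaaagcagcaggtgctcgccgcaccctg
The match begins 61 bases before the start of transcription. The letters occurred in 508 of 32851 promoter windows (1.55%) and in none of the other ERBB promoters that had a window. The androgen receptor half-site AGAACA, or TGTTCT on the other strand, occurred in 5284 windows (16.1%) and in no window of the 7 of 10 genes with one. At that share, an absence from 7 genes says little. Of the further ligands with a window, Epgn had a match, and Nrg3 and Nrg4 had none. A match is a description of letters and not of binding. Areg had 15 CG dinucleotides in all and a ratio of observed to expected CG of 0.74, above 76.4% of windows. Btc had 4 and a ratio of 0.18, above 27.4% of windows. Egf had windows at 2 starts, with 15 CG dinucleotides at one and 0 at the other. Tgfa had 19 and a ratio of 0.64. Among these ligands, the unlisted Areg and Tgfa had 15 and 19 CG dinucleotides and the listed Btc and Egf between 0 and 15. The listed receptors Egfr, Erbb4 and Erbb2 had 11, 12 and 16, so listed and unlisted genes overlapped in this number. Promoter windows of Erbb3, Ereg and Nrg1 were not analysed here.

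The share of genes listed was higher in longer genes in both groups, and the part of length in the listing of each ERBB gene was not tested. Of 15737 genes under 20 kb, 1.85% were listed in control and 0.553% after DHT. The shares were 11.3% and 3.11% from 20 to 50 kb, 27.2% and 8.16% from 50 to 100 kb, and 49.7% and 17.6% from 100 to 200 kb. They were 77.6% and 36.5% from 200 to 500 kb, and 99.1% and 66.4% over 500 kb. The median length was 13.5 kb over all genes, 96.4 kb over the control list and 127.9 kb over the DHT list, and the median of the 10 ERBB genes was 61.7 kb. When each of the 10 was given the share of its own length class, the mean was 29.0% for the control list against the 60.0% seen, and 12.8% for the DHT list against 10%. For control alone the mean was 19.4% against 60.0%, and for both lists it was 9.62% against 0. With 10 genes, 1 gene moves a share by 10 percentage points.

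**Figure D1:**
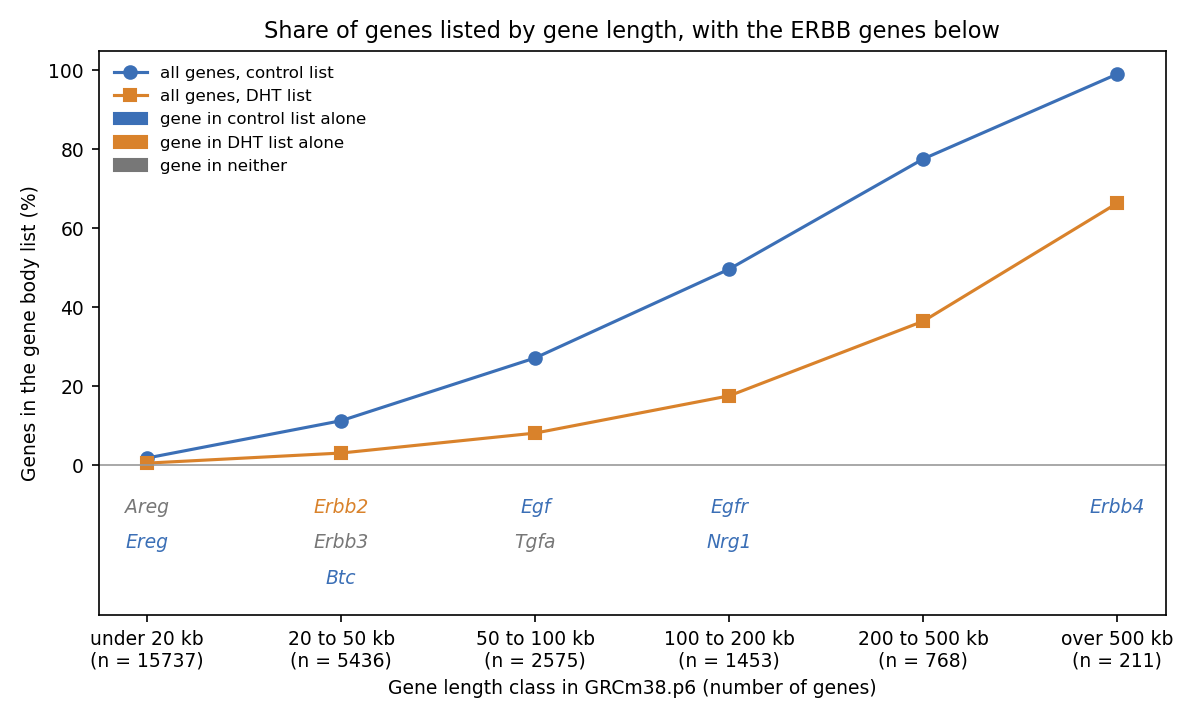
Share of all genes (vertical axis, %) in the control (circles) and DHT (squares) gene body lists by gene length class (horizontal axis, with the number of genes), with the ERBB genes of each class named under the axis and coloured by list. The control share rises from 1.85% under 20 kb to 99.1% over 500 kb, and genes of a like length, such as Egf and Tgfa, differ in their listing.

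Within a length class the ERBB genes did not all share a status. Under 20 kb, Ereg was in the control list and Areg in neither, in a class with 1.73% of genes listed in control alone. From 20 to 50 kb, Btc was listed in control alone, Erbb2 after DHT alone and Erbb3 in neither, in a class with 10.2% in control alone and 2.06% after DHT alone. From 50 to 100 kb, Egf was listed in control alone and Tgfa, of nearly the same length, in neither, in a class with 23.9% in control alone. From 100 to 200 kb, Egfr and Nrg1 were both listed in control alone, as were 39.5% of their class. Over 500 kb, 209 of 211 genes were in the control list, so the listing of Erbb4 in control is the rule at its length. Of those 211 genes 70 were listed in control alone (33.2%), Erbb4 included, and 139 were in both. By its whole gene record Nrg1 would fall into that class as well.

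None of the 6 genes listed in control was also listed after DHT, while 21.7% of all genes in the control list were. That share was also higher in longer genes, going from 6.53% of control genes under 20 kb to 9.28%, 12.1%, 20.5%, 38.9% and 66.5% in the successive classes. The genes listed in both had a median length of 223.5 kb, those in control alone 78.7 kb and those after DHT alone 64.2 kb. Erbb2, at 25.2 kb, was shorter than the median gene listed after DHT alone.

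Peak numbers on the chromosomes of the 10 genes set the scale for these listings. Over the whole genome there were 16345 peaks in control and 3975 after DHT, or 24.3% as many. The DHT number was 30.2% of the control number on chromosome 11 (Egfr and Erbb2), with 646 control and 195 DHT peaks, and 30.2% on chromosome 5 (Areg, Ereg and Btc), with 839 and 253. It was 23.2% on chromosome 1 (Erbb4), 27.3% on chromosome 10 (Erbb3), 28.6% on chromosome 8 (Nrg1), 20.1% on chromosome 3 (Egf) and 20% on chromosome 6 (Tgfa). The chromosome of Tgfa, an unlisted gene, and that of Egf, listed in control, thus had like ratios of DHT to control peaks. The median fold enrichment of a peak over its local background lay between 3.43 and 3.48 on these chromosomes in control and between 4.13 and 4.34 after DHT. Peaks near the limit were common, with a −log10 q-value under 2 in 61.4% of control peaks and 34.3% of DHT peaks. On these 7 chromosomes the control share was 58.5 to 64.2%. How near the limit the peaks in the ERBB genes lay was not analysed here.

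Neighbours were read from the gene order in GRCm38.p6, 5 protein-coding genes on either side. Over all protein-coding genes, 10.6% were listed in control alone. Around Egfr, 3 of 10 neighbours were listed in control alone (Grb10, Cnrip1 and Ppp3r1) and Cobl in both, and the genes directly beside it, Sec61g and Fbxo48, were in neither. Around Erbb4, Cps1, Ikzf2 and Vwc2l were listed in control alone and Spag16 in both, so that both genes beside it were listed in control alone. Around Nrg1, Gm3985 and Tex15 were listed in control alone and Fut10, directly beside it, in both. The median length of the neighbours was 27.2 kb around Egfr, 103.3 kb around Erbb4 and 20.8 kb around Nrg1. The part of length in the listing of neighbours was not tested. Erbb2, listed after DHT alone, had none of its 10 neighbours in either list. Those neighbours had a median length of 8.1 kb, and Mien1, which overlaps Erbb2, was among them. Erbb3 and Tgfa, in neither list, also had none of their 10 neighbours listed, with median lengths of 5.8 kb and 14.8 kb. Egf had 1 listed neighbour, Enpep, after DHT alone.

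Listed and unlisted genes lay side by side in the ligand cluster on chromosome 5. In order it runs Mthfd2l, Epgn, Ereg, Areg, Btc and Parm1. Mthfd2l (90.2 kb) was in both lists, Ereg (19.0 kb), Btc (45.7 kb) and Parm1 (106.3 kb) were listed in control alone, and Epgn (7.7 kb) and Areg (8.8 kb), the shortest of the run, were in neither. Of the 10 neighbours of Areg, with a median length of 16.6 kb, 4 were listed in control alone and 1 in both, and Ereg and Btc are among them. These neighbour sets overlap, so they are not separate observations.

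**Figure D2:**
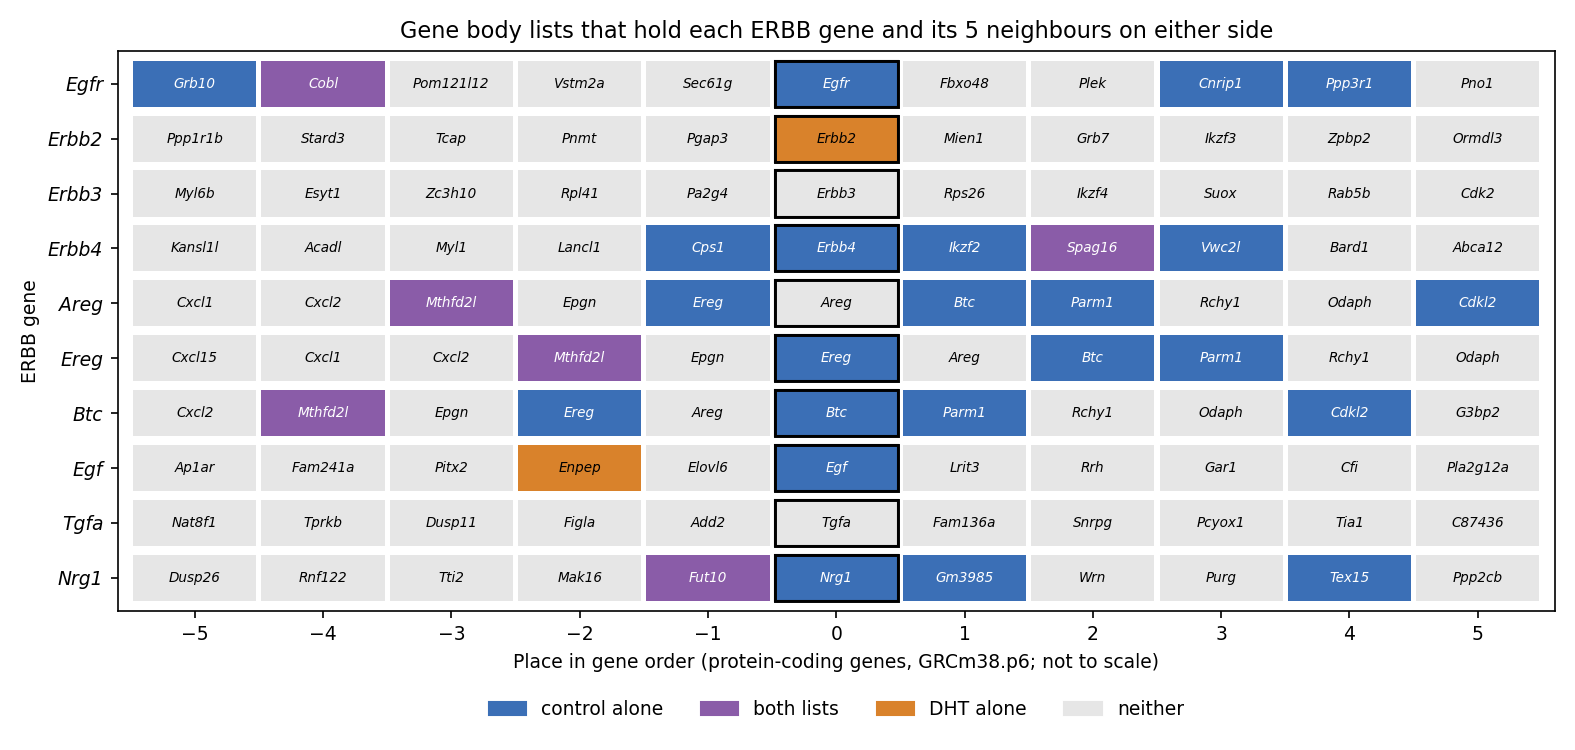
Gene body listing (colour) of each ERBB gene (black outline, centre column) and of its 5 protein-coding neighbours on either side (horizontal axis, place in gene order, not to scale), 1 row for each gene. The rows of Erbb2, Erbb3 and Tgfa hold no listed neighbour, and the rows of Areg, Ereg and Btc share the listed genes of the cluster on chromosome 5.

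The family has 5 further ligands, of which 2 were in the control list (40.0%) and 1 was in the DHT list. The mean shares of their length classes were 35.9% and 18.6%, so these counts were near those of genes as long. Nrg2 (182.8 kb), a neuregulin that binds ERBB3 and ERBB4, was listed in control alone. Nrg3 (1104.1 kb), which binds ERBB4, was in both lists and was the single ERBB gene of the 15 that was. Hbegf (10.9 kb) and Epgn, ligands of EGFR, and Nrg4 (63.4 kb), a ligand of ERBB4, were in neither. Over all 15 receptors and ligands, 8 were listed in control (53.3%) and 2 after DHT (13.3%). The mean shares of the length classes of the 15 were 31.3% and 14.8%. The gap in control lay mainly in the 10 genes of the set, at 60.0% against 29.0%, and little in the 5 further ligands. The difference between the 10 and the 5 was not tested. Erbb4 and Nrg3, a receptor and its ligand of nearly the same length, both had a control peak and differed after DHT.

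Beyond the receptors, 58 genes that release the ligands, carry the signal, restrain it or answer to it in the cumulus were looked up. Listed in control were 14 (24.1%) and after DHT 2 (3.45%), with mean shares of their length classes of 21.5% and 7.40%. The pathway as a whole was thus near genes of its lengths in control and below them after DHT, a difference of few genes that was not tested. None of the 58 was listed after DHT alone, in a promoter list or among the regulated genes joined to a peak or an enhancer. Regulated genes outside those lists were not looked up, and the paper names Has2, a gene of the 58, among those upregulated by DHT. Both sheddases of the ligands, Adam10 (101.2 kb) and Adam17 (50.1 kb), which cut the membrane precursors, were listed in control alone. The mean share of their length classes was 31.7% in control alone and 38.4% in the control list.

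Of 18 genes of the adaptor and RAS-ERK cascade, 4 were in the control list (22.2%), where the share of their length classes was 18.1%. Gab1, a docking protein, and Sos2, an exchange factor for RAS, were among those listed in control alone, and Sos1, the other exchange factor, was in both lists. Of 18 genes of the PI3K-AKT, PLC, SRC and STAT branches, 4 were in the control list (22.2%), below the 31.4% of their length classes. Pik3r1, a regulatory subunit of PI3K, Prkcb, a protein kinase C, and Stat3 were listed in control alone. Pik3cb, a catalytic subunit of PI3K, was in both, and the catalytic Pik3ca and the regulatory Pik3r2 were in neither.

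Of 16 inhibitors and scaffolds of the receptors, 4 were listed in control (25.0%) and none after DHT. The mean shares of their length classes were 16.5% and 5.23%, so an absence of 16 genes from the DHT list says little. For control alone the mean was 14.1% against 25.0%, a difference that was not tested. Cbl and Cblb, ubiquitin ligases that send active EGFR to degradation, Spred1, an inhibitor of RAS signalling, and Erbin, which binds ERBB2, were all listed in control alone. Of the 4 genes that EGFR signalling induces in cumulus expansion, Has2, Ptgs2, Tnfaip6 and Ptx3, none was in any deposited list. Those lists hold regulated genes only where joined to a peak or an enhancer, and the paper reports Has2 as upregulated in its RNA-seq. The 4 genes span 5.9 to 28.9 kb, and 4.21% of genes of their length classes were in the control list.

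**Figure D3:**
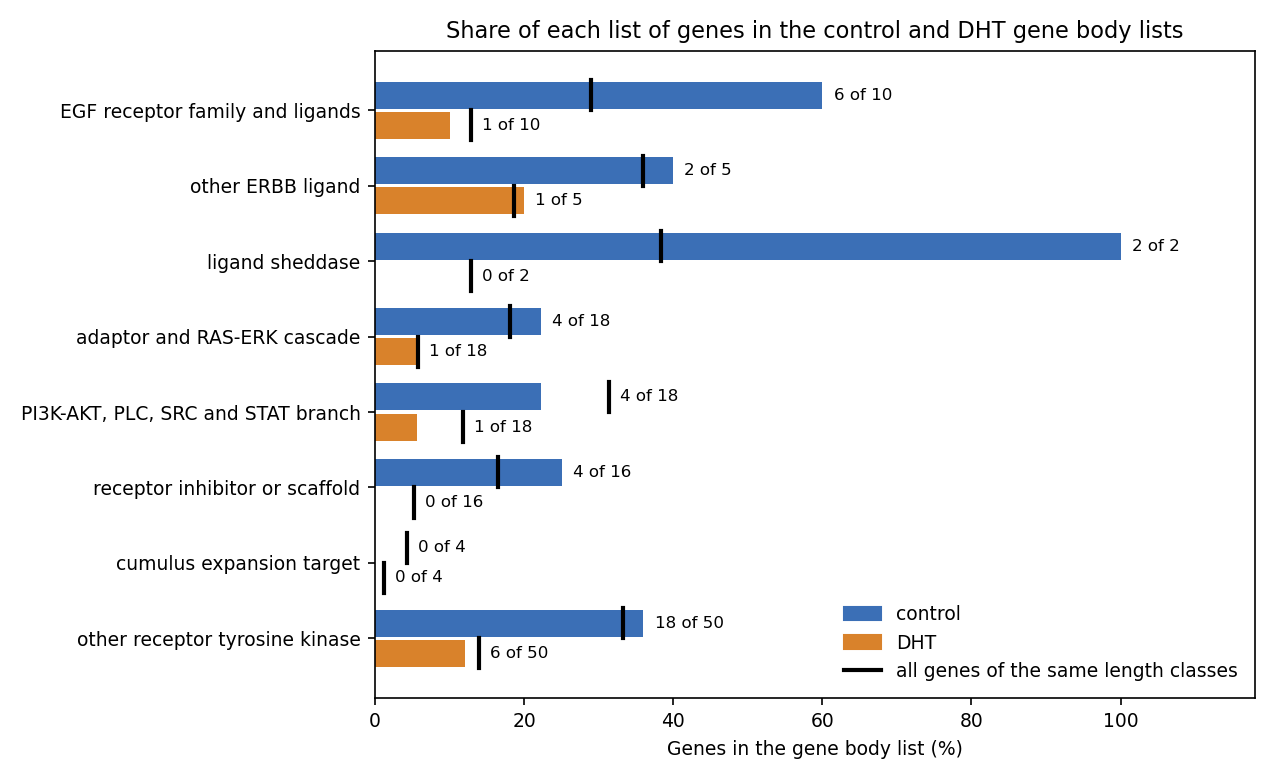
Share of each list of genes (horizontal axis, %) in the control (blue bars) and DHT (orange bars) gene body lists, with the mean share of all genes in the same length classes (black lines) and the counts printed beside the bars. The bar of the EGF receptor family and ligands stands at 60.0% in control against a line at 29.0%, and that of other receptor tyrosine kinases at 36.0% against 33.3%.

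The 50 other receptor tyrosine kinases are the genes most like the ERBB receptors. Of these 18 were listed in control (36.0%) and 6 after DHT (12%), with mean shares of their length classes of 33.3% and 13.9%. In control alone were 15 (30.0%), after DHT alone 3 (6.00%) and in both 3. Flt3, a cytokine receptor of blood progenitors, Mertk, a receptor for the clearance of dying cells, and Ntrk2, the receptor for brain-derived neurotrophic factor, were in both lists. The 3 listed after DHT alone, named after their values were seen, were Flt1, a receptor for vascular endothelial growth factor, Insr, the insulin receptor, and Pdgfrb, a receptor for platelet-derived growth factor. Erbb2 therefore shared its listing with 3 of 50 other receptor tyrosine kinases and Egfr and Erbb4 shared theirs with 15 of 50. Whether the ERBB receptors, with 2 of 4 in the control list, differ from the other receptor tyrosine kinases was not tested.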

How the data were processed

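H3K27me3 ChIP-seq of 3 control and 3 DHT samples was used, grouped by the labelled agent. The authors mapped reads to mm9 with Bowtie2 2.3.4, kept uniquely mapped reads and called broad peaks with MACS2 2.1.1 up to a q-value of 0.05. The deposited files hold 1 peak list per group. How replicates were combined and whether an input served as background are not given in the sources used here. The methods state that duplicates were removed, whereas peak names carry the automatic duplicate setting. The methods and the labels also differ in the number of mice. Per peak the authors give a fold enrichment (the ratio of the signal to the local background that the caller used), a −log10 p-value (not used here), a −log10 q-value and a score that restates the latter as a whole number. The authors' gene lists hold symbols without values. For regulated genes they also rest on the authors' RNA-seq calls, and enhancers on chromatin contacts.

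Symbols were matched in Python 3.11.15 with pandas 2.3.3 and numpy 2.4.6 to the 26180 genes of GRCm38.p6 that have curated RefSeq transcripts, older symbols being mapped to current ones. Of the gene body lists, 3132 of 3144 control and 1142 of 1146 DHT symbols matched, and of the promoter lists 158 of 160 and 54 of 55. Gene length was the span of the curated transcripts. The code that computes shares by length class was checked on simulated lists of known shares, which bears on the code and not on any comparison. Promoter sequences are from RefSeq on GRCm38.p6. Plots were drawn with matplotlib 3.10.9.

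With 1 list per group there is no replicate, depth is unknown and no test was made. The text names all 10 genes and, of each further list, every gene in a gene body, promoter or regulated list where these are 12 or fewer, otherwise those in both gene body lists. A gene that the rule would name is not reported here. Unlisted genes named as such and neighbours are further to that rule. The members and lists were chosen with earlier results of these data known. Alternatives were exact symbols, protein-coding genes as background, length classes, the 5 further ligands, and, chosen after seeing the data, whole gene records.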

Additional observations from a re-analysis of the deposited data

How the results depend on the processing

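All 14 alternative shares of listed genes, with exact current symbols or with the 5 further ligands added, stayed within 1.5 times the reported ones. Exact symbols changed no count of the set or of the other groups of genes, and the promoter count was 0 throughout. Only the further ligands moved a share, so the agreement of the rest says little. The count in the DHT list itself went from 1 of 10 to 2 of 15 with the further ligands. All 10 symbols are current names, so exact symbols could not change their counts. The background changed more. Among protein-coding genes alone, 13.6% were in the control list, 4.97% in the DHT list and 10.6% in control alone. By length class of each member the shares were 29.0%, 12.8% and 19.4%. By the length of whole gene records, an alternative chosen after seeing the data, they were 33.3%, 17.3% and 18.6%. No paired analysis was possible because the lists are pooled by group and carry no value per sample, and for the same reason no replicate could be left out. Stricter q-values, fold enrichment and overlap for peaks inside the genes were not run, since mm9 gene positions were not used here. A listing is a call at 1 limit, so a gene absent from a list may still carry signal below it.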

Other observations

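Among the 50 other receptor tyrosine kinases, the 14 Eph receptors, which bind ephrins on neighbouring cells, held 5 genes in the control gene body list (35.7%) and none in the DHT list, where the mean shares of their length classes were 38.0% and 17.3%. The 36 others held 13 listed in control (36.1%) and 6 listed after DHT (16.7%), with mean shares of 31.5% and 12.5%. The difference between these groups was not tested. Regulated genes without a listed peak or enhancer were not looked up. Among the regulated genes joined to a peak or an enhancer, Epha3 (320.6 kb) was the only receptor tyrosine kinase of the 4 ERBB receptors and 50 others. Epha3 was singled out after its values were seen. It was listed in control alone and stood in both lists of genes upregulated by DHT, that of gene body peaks and that of enhancers.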
